A study of Glycine max with 4 samples.

Results

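A set of 7 soybean genes of the MADS-box family is described here, out of 69145 genes in the deposited tables. They were chosen by identifier: 4 homologs of APETALA1 (AP1), namely Glyma16g13070, Glyma08g36380, Glyma01g08150 and Glyma02g13420; the stem growth gene Dt2 (Glyma18g50910); and 2 homologs of SUPPRESSOR OF OVEREXPRESSION OF CONSTANS 1 (SOC1), Glyma18g45780 and Glyma09g40230. These names came from the description of the gene set and from published work on soybean, because the files pair no identifier with a name. All 7 genes were found in both tables, and 1 of them, Glyma09g40230, had more than 1 transcript model.

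RNA was sequenced from cultivar Clark, in the wild type called Clark standard and in the isoline Clark five-foliate, a leaf mutant named for its extra leaflets. Isolines are bred to be alike in most of the genome. Young shoot tips (tips below) and vegetative buds (buds below) were taken from several greenhouse plants at an age of 4 weeks under optimal growth conditions, and freeze-dried before total RNA was extracted. Each line thus gave a tip and a bud library, 4 groups of 1 library. No group had a replicate, and each isoline was a single line.

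MADS-box genes encode transcription factors that bind DNA as dimers or larger complexes, and several of them act in sequence at the shoot apex when a plant turns from leaves to flowers. In Arabidopsis, SOC1 responds to day length and age signals in the shoot meristem and acts before AP1, which is switched on in young floral meristems and gives them floral identity. Dt2 belongs to the AP1 and FRUITFULL branch of the family and makes the soybean stem semi-determinate by repressing the stem growth gene Dt1 at the shoot apex. Soybean descends from an ancient polyploid, and most of its genes exist in several copies.

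The deposited values were RPKM, reads scaled by model length and by library total. The library totals, recovered from the values themselves, ran from 97532923 to 152791817 alignments. Reads behind each value were recovered in the same way, and unless stated otherwise the intervals below are 95% exact binomial intervals of these reads. They compare libraries, cover counting error only, and say nothing about the spread between plants. Log2 ratios were taken after adding 1 RPKM to each level, which shrinks the ratios of genes with few reads, and were set beside those of all genes reaching 1 RPKM in either library compared.

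The AP1 homologs were nearly silent in the standard tip and present in both buds. Glyma16g13070, on chromosome 16, was without a read in the standard tip and 11.15 RPKM in the bud of that line (1036 reads), while the five-foliate line had 0.278 RPKM in the tip (37 reads) and 7.50 RPKM in the bud (741 reads). Glyma08g36380, on chromosome 8, also had no read in the standard tip and reached 9.29 RPKM in the bud of that line (614 reads), against 0.306 RPKM (29 reads) and 6.39 RPKM (449 reads) in tip and bud of the five-foliate line. Both copies thus had their highest level in the standard bud and their lowest in the standard tip, where 3 reads would have corresponded to 0.0206 RPKM for Glyma16g13070 and 0.0290 RPKM for Glyma08g36380.

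The other AP1 copies had the same order of libraries. Glyma01g08150, on chromosome 1, had 0.00540 RPKM in the standard tip (1 read) and 8.25 RPKM in the bud of that line (976 reads), against 0.1003 RPKM (17 reads) and 6.48 RPKM (814 reads) in tip and bud of the five-foliate line. Glyma02g13420, on chromosome 2, had 0.00747 RPKM in the standard tip (1 read) and 9.50 RPKM in the bud of that line (812 reads), against 0.180 RPKM (22 reads) and 7.61 RPKM (691 reads) in tip and bud of the five-foliate line. In each of the 4 copies both bud libraries lay above both tip libraries, without overlap. Their order of libraries was common, shown by 27.3% of the 40448 genes that reached 1 RPKM anywhere. A further 12.6% had another order with both buds above both tips. Orders with the five-foliate tip below the standard tip were not counted. The full share of genes with both buds above both tips was thus not computed, and these shares together are its lower limit. Near-identical copies can exchange reads, and how reads with several matches were treated is not given in the sources used, so the split between copies is uncertain.

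**Figure D1:**
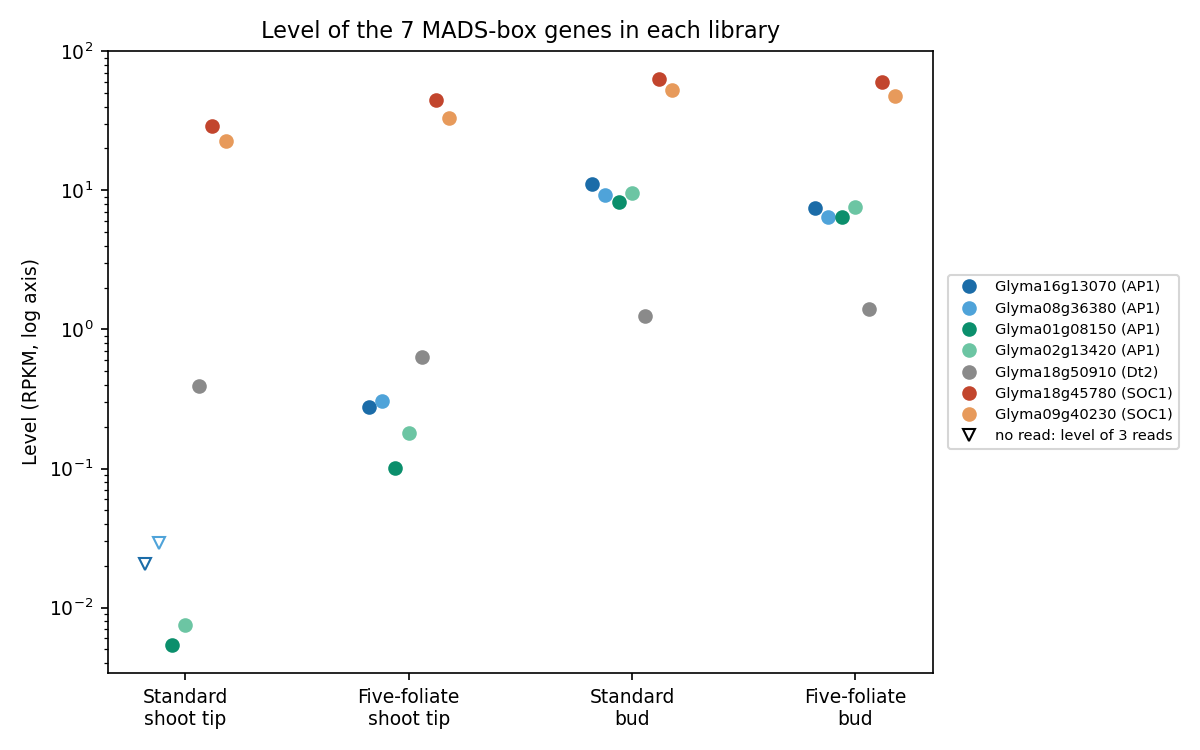
Level of each of the 7 genes in RPKM (log axis) in the 4 libraries; each point is 1 library, and open triangles stand for the level that 3 reads would give where no read was found. The SOC1 homologs sit between 22.6 and 63.1 RPKM throughout, and the AP1 homologs go from at most 0.306 RPKM in the shoot tips to at least 6.39 RPKM in the buds.

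Dt2 was the lowest of the 7 genes in the buds. It had 0.392 RPKM in the tip (51 reads) and 1.24 RPKM in the bud (103 reads) of the standard line, and 0.631 RPKM in the tip (75 reads) and 1.39 RPKM in the bud (123 reads) of the five-foliate line. In the standard tip Dt2 exceeded the AP1 genes, whose summed level, from 2 reads, was 0.0328 times that of Dt2 in RPKM. The AP1 sum was 1.37 times the Dt2 level in the five-foliate tip, 30.8 times in the standard bud and 20.1 times in the other bud. Between 41.1% and 50.1% of all genes lay below Dt2 in the 4 libraries.

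The SOC1 homologs were abundant in every library. Glyma18g45780, on chromosome 18, had 29.1 RPKM in the tip and 63.1 RPKM in the bud of the standard line, and 44.3 RPKM in the tip and 59.9 RPKM in the bud of the five-foliate line, from 4343 to 6074 reads. Glyma09g40230, on chromosome 9, had 22.6 RPKM in the tip and 52.3 RPKM in the bud of the standard line, and 33.0 RPKM in the tip and 47.5 RPKM in the bud of the five-foliate line, from 3730 to 5514 reads. Both genes ranked above at least 95.1% of all genes in each library. Glyma18g45780 was the higher of the pair everywhere, at 1.29 times the level of Glyma09g40230 in the standard tip, 1.34 times in the five-foliate tip, 1.21 times in the standard bud and 1.26 times in the other bud.

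Glyma09g40230 was listed with a longer model of 1081 bases and a shorter one of 619 bases, lengths that were recovered from the values. The shorter model had 20.2 RPKM in the tip and 46.6 RPKM in the bud of the standard line, and 29.3 RPKM in the tip and 42.2 RPKM in the bud of the five-foliate line. Its level was 0.888 to 0.894 times that of the longer model, a nearly constant balance over the 4 libraries. Whether the same reads were counted for both models was not tested.

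The comparison of tissues asked how the genes differed between bud and tip within each line. In the standard line, the interval of the bud to tip ratio of Glyma16g13070 began at 439, and the ratio was 541 with 3 tip reads in place of 0. That of Glyma08g36380 began at 260, and the ratio was 321 on the same terms. Glyma01g08150 had a bud to tip ratio of 1529 (interval 274 to 60450) and Glyma02g13420 of 1272 (interval 228 to 50300), both resting on 1 read in the tip. Summed over the 4 copies there were 2 reads in the standard tip against 3438 in the standard bud, a ratio of 2693 per alignment total (interval 744.9 to 22250).

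In the five-foliate line the AP1 ratios were smaller. Glyma16g13070 was 27.0-fold higher in the bud than in the tip (interval 19.4 to 38.7), Glyma08g36380 20.9-fold (interval 14.3 to 31.6), Glyma01g08150 64.6-fold (interval 40.1 to 111) and Glyma02g13420 42.4-fold (interval 27.8 to 68.1). The summed AP1 reads were 105 in the tip and 2695 in the bud, 34.6-fold higher per alignment total in the bud (interval 28.5 to 42.5).

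Dt2 and the SOC1 homologs had smaller differences with the same sign. Dt2 was 3.16-fold higher in the bud than in the tip of the standard line (interval 2.24 to 4.52) and 2.21-fold in the five-foliate line (interval 1.65 to 2.99). Glyma18g45780 was 2.17-fold higher in the bud of the standard line (interval 2.09 to 2.26) and 1.35-fold in that of the five-foliate line (interval 1.31 to 1.40). Glyma09g40230 was 2.32-fold higher in the bud of the standard line (interval 2.22 to 2.42) and 1.44-fold in that of the five-foliate line (interval 1.39 to 1.496). The median bud to tip fold of all genes passing the filter was 1.51 in the standard line and 1.06 in the five-foliate line.

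Counted on the log2 scale, 6 of the 7 genes were at least 2-fold higher in the standard bud, where 20.7% of 39343 genes were. The exception was Dt2, with a log2 ratio of 0.69 after adding 1 RPKM to its low levels. Its plain ratio of 3.16 was above those of the SOC1 homologs, and its log2 ratio was 1.45 when 0.1 RPKM was added instead. The AP1 homologs and Dt2 passed the filter only through the bud libraries, where they are high, so these counts are a description. The SOC1 homologs no longer reached 2-fold when ratios were centred on the median of all genes or scaled to the upper quartile, which left the 4 AP1 homologs. In the five-foliate line these 4 were at least 2-fold higher in the bud, where 10% of 39042 genes were. Every one of the 7 genes was higher in the bud in both lines, a sign shown by 74% of all tested genes in the standard line and 54.7% in the five-foliate line. The share of genes higher in the bud in both lines at once was not computed.

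**Figure D2:**
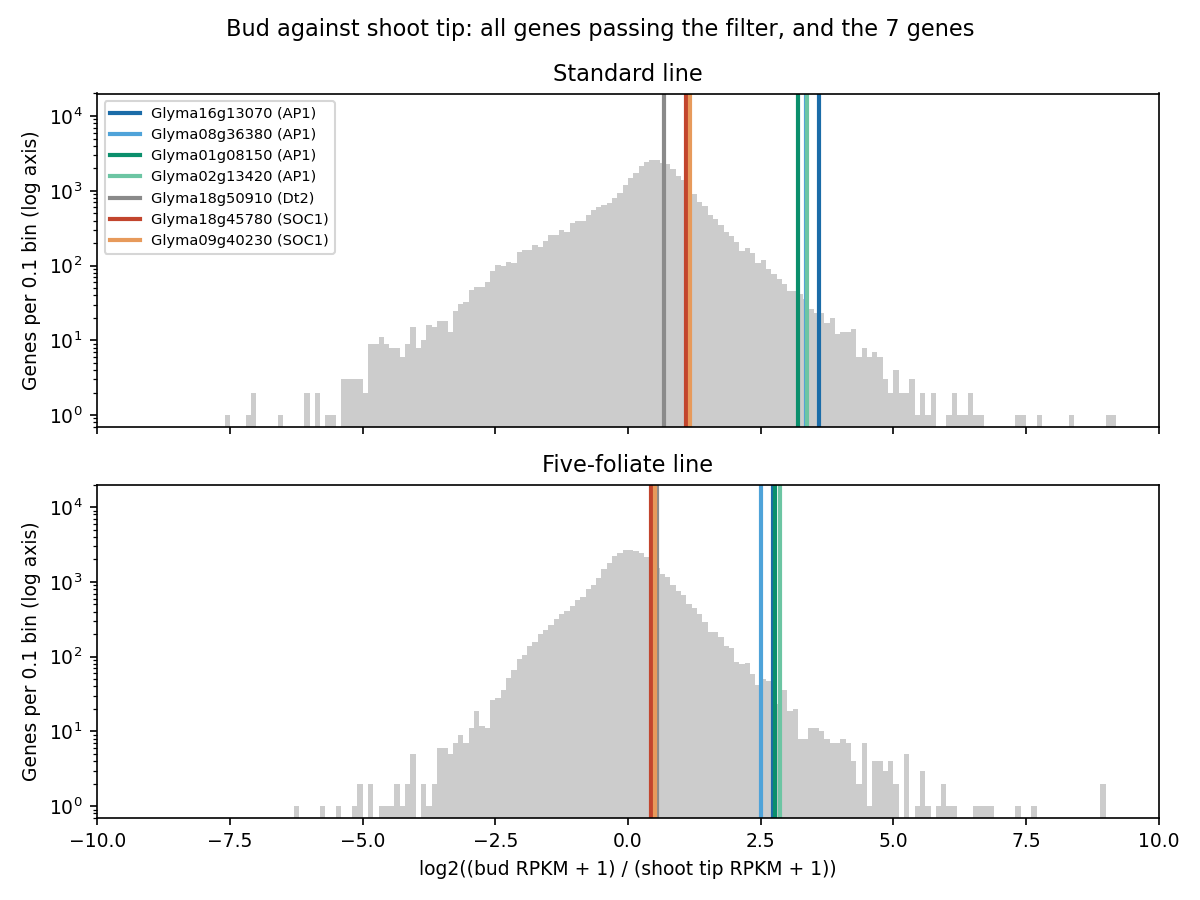
Number of genes (log axis) by log2 ratio of bud to shoot tip on RPKM plus 1, in the standard line (top) and the five-foliate line (bottom), with vertical lines at the 7 MADS-box genes. The AP1 lines stand at 3.20 to 3.60 in the standard line and 2.50 to 2.87 in the five-foliate line, in the right tail, while Dt2 and SOC1 lie within the bulk.

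Tissue and genotype were also fitted together with limma over 40448 genes. The AP1 homologs and Dt2 were again admitted by the filter only through the buds, so their results in this fit are a description. The fit called the 4 AP1 homologs higher in the bud at a Benjamini-Hochberg adjusted p under 0.05, where 13.7% of all genes were called higher and 7.61% lower. The fitted log2 differences were 3.17 for Glyma16g13070 (adjusted p = 4.166e-15 in limma), 2.93 for Glyma08g36380 (adjusted p = 5.144e-13 in limma), 2.98 for Glyma01g08150 (adjusted p = 1.814e-13 in limma) and 3.13 for Glyma02g13420 (adjusted p = 1.031e-14 in limma), each with a standard error of 0.375 and the same direction in both lines. The differences did not pass for Dt2 (log2 0.62, adjusted p = 0.2519 in limma), Glyma18g45780 (log2 0.76, adjusted p = 0.1401 in limma) or Glyma09g40230 (log2 0.84, adjusted p = 0.09331 in limma). With 1 residual degree of freedom, the error term held the disagreement between the lines, not variation among plants, and a single standard error applied to all genes. With no filter on low values limma called none of the 7 genes for tissue (AP1 adjusted p from 0.201 to 0.244, with 5 of the 7 at an unadjusted p under 0.05), and over the other alternatives the adjusted p of the AP1 homologs ranged from 1.95e-25 to 0.0403.

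The tissues stand in separate tables whose column headers carry different library labels, so tissue and table cannot be told apart. The labels call the bud vegetative. Other floral or meristem markers were not looked up, since 0 of the 69145 identifiers matched the reference table, so the tissue label was set only beside the genes described here. In bulk tissue, more cells with a transcript and more transcript per cell cannot be told apart.

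The comparison of genotypes asked how the five-foliate line differed from the standard line in each tissue. In the bud the AP1 homologs were lower in the five-foliate library. The five-foliate to standard ratio was 0.673 for Glyma16g13070 (interval 0.612 to 0.741), 0.688 for Glyma08g36380 (interval 0.608 to 0.779), 0.785 for Glyma01g08150 (interval 0.714 to 0.863) and 0.801 for Glyma02g13420 (interval 0.723 to 0.888). The median ratio of all tested genes was 0.949, above all 4 intervals. On the log2 scale 1.12% of 38332 tested genes had a lower ratio than Glyma16g13070, 1.52% than Glyma08g36380, 6.16% than Glyma01g08150 and 7.41% than Glyma02g13420. None of the 7 genes reached 2-fold between the buds, against 0.916% of all tested genes.

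The copies on chromosomes 16 and 8 had the lower ratios and those on chromosomes 1 and 2 the higher ones, though the intervals of all 4 overlapped. The summed level of the first pair was 1.15 times that of the second pair in the standard bud and 0.986 times in the five-foliate bud. In the five-foliate tip, with far fewer reads, it was 2.09 times. Glyma16g13070 made up 29.2% of the AP1 sum in the standard bud and 26.8% in the other, and Glyma01g08150 made up 21.6% and 23.1%. No copy held less than 21.6% of the sum in either bud. In the five-foliate tip the shares ran from 11.6% for Glyma01g08150 to 35.4% for Glyma08g36380.

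**Figure D3:**
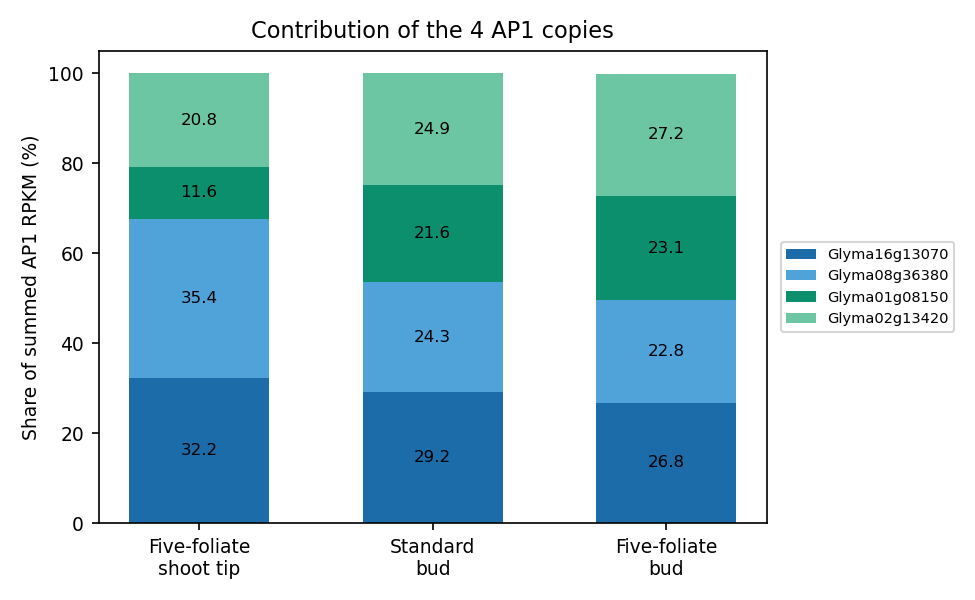
Share of each AP1 homolog in the summed AP1 RPKM of the five-foliate shoot tip, the standard bud and the five-foliate bud; each bar is 1 library. The standard shoot tip is left out because it held 2 AP1 reads. The shares in the buds lie between 21.6% and 29.2%, and those in the five-foliate shoot tip between 11.6% and 35.4%.

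Dt2 and SOC1 differed little between the buds. Dt2 had a five-foliate to standard ratio of 1.12 (interval 0.858 to 1.48), a difference not detectable at this depth. Glyma18g45780 had a ratio of 0.9496 (interval 0.916 to 0.984), which includes the median ratio of all genes, and Glyma09g40230 of 0.909 (interval 0.875 to 0.944), which lies under it. A negative log2 ratio was shown by 6 of the 7 genes and by 68.9% of all tested genes.

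In the tip the direction was the other way. The interval of the five-foliate to standard ratio began at 10.4 for Glyma16g13070 and at 8.06 for Glyma08g36380, and with the standard tip set to 3 reads the ratios were 13.5 and 10.6. Glyma01g08150 had a ratio of 18.6 (interval 2.91 to 777) and Glyma02g13420 of 24.1 (interval 3.89 to 993), from 1 standard read each. The summed AP1 reads were 105 against 2, a ratio of 57.4 per alignment total (interval 15.5 to 480). Each of these lower limits lay above 1.35, the median ratio of all tested genes in the tip. The 4 homologs did not reach the filter in the tip and were not among these genes. The median also left out genes without a standard read. On the scale of RPKM plus 1, 51.4% of tested genes had a lower ratio than Glyma16g13070 and 54.5% than Glyma08g36380. The shares were 32.8% for Glyma01g08150 and 40.2% for Glyma02g13420. The AP1 levels remained low in absolute terms, with none of the 4 copies above 0.306 RPKM.

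Dt2 was 1.61-fold higher in the five-foliate tip (interval 1.11 to 2.34), which includes the median ratio of all genes. Glyma18g45780 was 1.53-fold higher there (interval 1.47 to 1.59) and Glyma09g40230 1.46-fold (interval 1.40 to 1.53), both above that median. Only the 2 SOC1 homologs reached the filter of 1 RPKM in a tip library, and neither passed 2-fold, against 12.3% of 36537 tested genes. Their log2 ratios were 0.59 and 0.53 against a median of 0.34 for all genes, and 73.6% and 68.2% of tested genes had a lower ratio. On the scale of RPKM plus 1, the low levels of Glyma01g08150, Glyma02g13420 and Dt2 gave log2 ratios of 0.13, 0.23 and 0.23, which turned negative when that median was subtracted, whereas their ratios of plain RPKM all lay above the median ratio of 1.35.

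**Figure D4:**
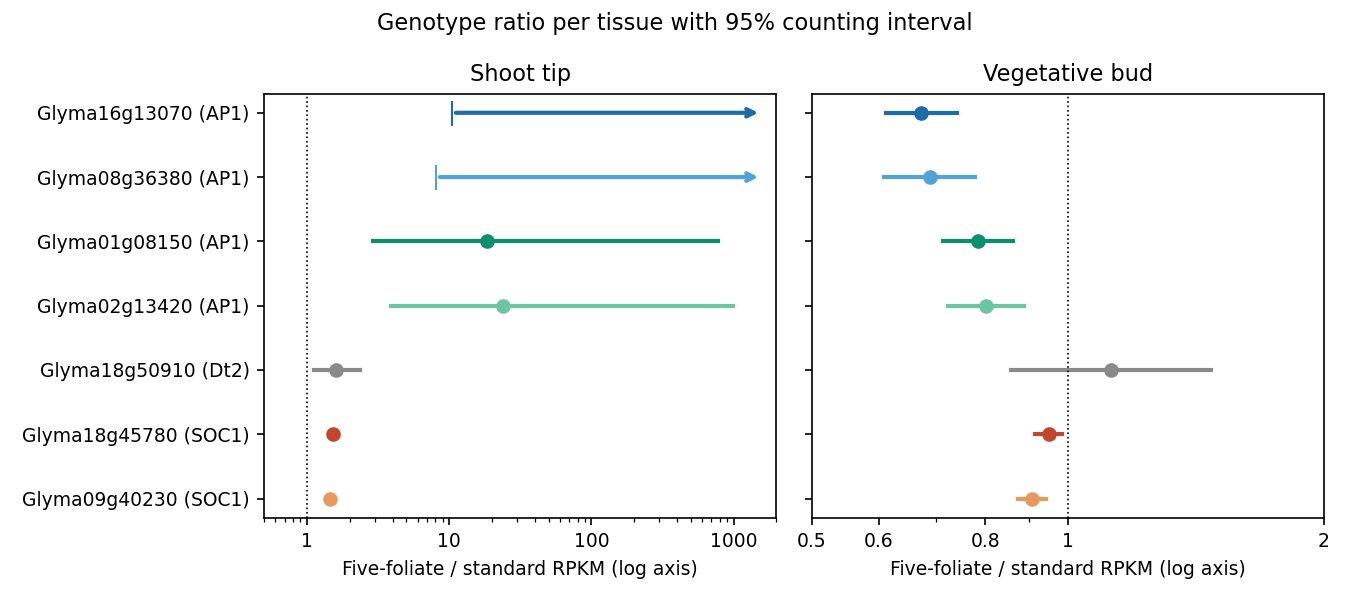
Ratio of five-foliate to standard RPKM (log axes of different range) for each gene in the shoot tip (left) and the bud (right); each point compares 1 library with 1 other, bars are 95% exact binomial intervals of the reads, and arrows start at the lower limit where the standard shoot tip had no read. In the shoot tip all 7 genes lie above 1, and also above the median ratio of all genes of 1.35; in the bud all but Dt2 lie below 1. On RPKM plus 1, which is not plotted, centring turns 3 of the 7 shoot tip ratios negative.

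The limma fit over both tissues called none of the 7 genes for genotype, against 0.504% of all genes, and none of the 7 had an unadjusted p under 0.05. The fitted log2 differences ran from -0.09 for Glyma01g08150 to 0.26 for Glyma18g45780, with a standard error of 0.375. Opposite signs in the tissues cancel in this term, and a term for genotype within tissue would leave no residual degree of freedom.

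The order of the libraries was the same in the AP1 and SOC1 homologs. In these 6 genes the standard tip was lowest, followed by the five-foliate tip, the five-foliate bud and the standard bud, an order shown by 27.3% of the 40448 genes that reached 1 RPKM anywhere. Dt2 had the buds in the opposite order, as did 12.6% of genes, but its buds did not differ beyond counting error. The groups differed in the size of the steps. The summed SOC1 level was 51.6 RPKM in the standard tip, where the AP1 sum of 0.0129 RPKM rested on 2 reads. It was 89.5 times the AP1 sum in the five-foliate tip, 3.84 times in the five-foliate bud and 3.02 times in the standard bud, in RPKM.

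The AP1 levels were also set beside those of all genes. Taking the AP1 values themselves as limits, at most 0.306 RPKM in both tips and at least 6.39 RPKM in both buds, the set numbered 64 genes. It includes the 4 homologs by construction, and sets drawn in this way around other genes were not counted. Of these 64, 7 including the 4 homologs were higher in the five-foliate tip and lower in the five-foliate bud than in the standard line. By Euclidean distance of log2 levels (RPKM plus 1) over the 4 libraries, the AP1 homologs lay within 0.24 to 0.485 of each other. Ranked by nearness among 40447 genes, the homologs stood at 2, 5 and 15 from Glyma16g13070, at 4, 6 and 7 from Glyma08g36380, at 6, 7 and 32 from Glyma01g08150 and at 3, 4 and 6 from Glyma02g13420. The nearest gene to Glyma16g13070 was Glyma10g30110 at a distance of 0.175, with 0.0414 RPKM in the tip and 10.7 RPKM in the bud of the standard line, and 0.335 RPKM in the tip and 8.38 RPKM in the bud of the five-foliate line.

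The SOC1 pair lay farther apart, at a distance of 0.687, and Glyma09g40230 ranked 297 from Glyma18g45780. The nearest gene to Glyma18g45780 was Glyma02g42080 at 0.128, with 28.2 RPKM in the tip and 58.1 RPKM in the bud of the standard line, and 45.1 RPKM in the tip and 59.9 RPKM in the bud of the five-foliate line. Dt2 had 1603 genes within a distance of 0.5, against 15 to 36 for the AP1 homologs, 131 for Glyma18g45780 and 156 for Glyma09g40230. Adding 1 RPKM draws low levels such as those of Dt2 together, so these counts depend on the level of the gene. The files pair neither of these nearest genes with a name.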

How the data were processed

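RNA-seq libraries were sequenced on an Illumina Genome Analyzer, per the labels' protocols, and the authors deposited RPKM values in 1 table per tissue. The submitters' processing notes name Bowtie. Genome build, annotation and handling of multiple matches: not given in the sources used here. The tables share 78773 models, and 708957 rows without an identifier were dropped from the bud table. Each gene was represented by its model of highest mean RPKM.

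Reads were recovered by a search for whole library totals and a whole model length (20 to 20000) under which every value of a model came within 0.0005 of a whole read number. This held for 99.99% of the 62593 models with no value of 0, and for 0% of 1000 models with values shifted at random. Where several lengths were possible, the shortest was used. A level of 0 was set beside 3 reads.

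Ratios used a pseudocount of 1 RPKM and a filter of 1 RPKM in at least 1 of the libraries compared. Genotype and tissue were fitted over all genes with limma 3.58.1 (R 4.3.3; Benjamini-Hochberg threshold 0.05), after a test on simulated data. Remaining steps ran in Python 3.11.15 with SciPy 1.17.1, pandas 2.3.3 and numpy 2.4.6, and figures in matplotlib 3.10.9. Named genes were all 7 and, outside them, the nearest gene to the most abundant AP1 and SOC1 homolog. The gene nearest to Dt2, also in the plan, is left unnamed to keep unannotated identifiers few. Lists of other floral genes and tissue markers select by name and were not applied: 0 identifiers matched the 59048 genes of the RefSeq table (Glycine_max_v4.0), and no sequence or coordinate is shown. The genes and lists were chosen with earlier results of these data known. Alternatives were pseudocounts of 0.1 and 5 RPKM, a filter of 5 RPKM or none, ratios centred on the median, scaling to the upper quartile, summed models, a 3-fold threshold, a trended prior, and limma without the other term.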

Additional observations from a re-analysis of the deposited data

Results flagged for a closer look

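In 6 of the 7 genes the difference between genotypes had opposite signs in the tissues, higher in the five-foliate shoot tip and lower in the five-foliate bud, with both counting intervals apart from a ratio of 1. On the log2 scale of RPKM plus 1, the shoot tip ratio exceeded the bud ratio by 0.87 in Glyma16g13070, 0.86 in Glyma08g36380, 0.44 in Glyma01g08150 and 0.51 in Glyma02g13420. It exceeded it by 0.67 in Glyma18g45780 and 0.66 in Glyma09g40230. With 1 library per group this difference was not tested. Of all tested genes, 74.8% had a log2 ratio above 0 in the shoot tip and 68.9% had one below 0 in the bud. The order of libraries in these 6 genes, which has both signs, was shown by 27.3% of the 40448 genes that reached 1 RPKM anywhere. This order also needs both buds above both tips, so the share of genes with both signs was at least 27.3%. The full share, and the share with both counting intervals apart from 1, were not computed. The median log2 ratio of all tested genes had the same signs, 0.34 in the shoot tip and -0.06 in the bud. With ratios centred on these medians the SOC1 homologs had 0.25 and 0.19 in the shoot tip and -0.01 and -0.07 in the bud, in the order Glyma18g45780 and Glyma09g40230. The centred values were 0.01 in the shoot tip and -0.45 in the bud for Glyma16g13070, and 0.05 and -0.41 for Glyma08g36380. Those of Glyma01g08150 were -0.21 and -0.24 and those of Glyma02g13420 -0.11 and -0.22, so that these 2 genes no longer had opposite signs on this scale.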

How the results depend on the processing

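Of 50 counts recomputed under the alternatives, 49 stayed within 1.5 times the reported count. The exception was limma with no filter on low values, which called 0 of the 7 genes for tissue in place of 4. It called 0 of 69145 genes in all, its prior degrees of freedom were 0.536 where the reported fit had an infinite value, and the cause was not tested. The 4 AP1 homologs were also called for tissue with no replicate block, that is with the genotype term left out. The number of genes at 2-fold between the standard bud and shoot tip ranged from 4 to 7, with 4 under centring, upper-quartile scaling and the 3-fold threshold, and 7 with a pseudocount of 0.1. In the five-foliate line it was 5 with a pseudocount of 0.1 and 4 otherwise. Every genotype count was 0 under every setting, and at the reported filter only 2 genes were tested in the shoot tip. With a pseudocount of 0.1 the shoot tip genotype log2 ratios were 1.92 for Glyma16g13070, 2.02 for Glyma08g36380, 0.93 for Glyma01g08150 and 1.38 for Glyma02g13420. These AP1 homologs did not reach the filter there, so the shoot tip counts with a filter left them out. Of 140 log2 ratios of single genes, 91 stayed inside the counting interval and 49 did not. This interval was set on the scale of RPKM plus 1 with the denominator held fixed, also for ratios with other pseudocounts. Where the denominator had no read, a Poisson interval of the numerator reads was used, with 0 to 3 reads in the denominator. No ratio past 2-fold changed sign, and 3 smaller ones did, the shoot tip genotype ratios of Glyma01g08150 (-0.21), Glyma02g13420 (-0.11) and Dt2 (-0.11) after centring. Within a tissue or a line no paired analysis was possible because each group has 1 library. The reported limma fit estimated the genotype effect over both tissues together and the tissue effect over both lines together. No replicate could be left out. In the shoot tips, 0 to 37 reads per AP1 copy limited every ratio.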
